A study of Mus musculus with 19 samples.

Results

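Gene expression in mouse sciatic nerve glia at embryonic day 16 (E16) was compared with that at embryonic day 14 (E14). The comparison took every array labelled E16, of which there were 4, and every array labelled E14, of which there were 3, so that 7 of the 19 arrays of the study were compared. It was made for every measured probe set, and no measured value decided which arrays were used.

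Both stages came from transgenic mouse embryos that carry green fluorescent protein (GFP) under a glial promoter, so that neural crest stem cells and the glia they form are marked. The sciatic nerve was dissected, the GFP-expressing cells were isolated by fluorescence-activated sorting, and their RNA was amplified by 2 rounds of in vitro transcription before hybridization to Affymetrix arrays. The labels call the E14 cells Schwann cells and the E16 cells early Schwann cells, and no mutation or treatment is named for either stage. The other 12 arrays hold trunk cells at E9.5 and sciatic nerve cells at E12, E18 and the day of birth (P0).

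The sort kept any cell with reporter GFP, so the groups hold reporter-positive cells and not cells picked by a Schwann cell antigen. Nothing in the labels says that arrays of 1 stage came from separate litters, so the p-values below measure only the spread between these arrays. In such bulk samples, fewer cells of a type and less RNA per cell cannot be told apart.

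Schwann cells of peripheral nerve arise from the neural crest through precursors and immature Schwann cells. Precursors lie among the axons without a basal lamina and depend on axonal neuregulin, which they sense through ErbB receptors. Immature Schwann cells survive by signals of their own, lay down a basal lamina, surround bundles of axons and later either myelinate or stay as non-myelinating cells. In mouse sciatic nerve the step from precursor to immature cell falls between the stages compared here.

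The 4 E16 arrays formed 2 pairs, replicates 1 and 2 (the first pair) and replicates 3 and 4 (the second). Each array label has a lot number, which was 1 for E16 replicates 1 and 2, 3 for replicate 3 and 4 for replicate 4, against 1, 2 and 3 for the E14 replicates. Spearman correlations over probe sets were 0.973 between E16 replicates 1 and 2 and 0.962 between replicates 3 and 4, but 0.928 to 0.937 between the pairs. The E14 arrays correlated with each other at 0.952 to 0.969. E16 replicates 3 and 4 correlated most with E18 replicate 1, at 0.967 and 0.978. The ratio of the 3' to the 5' GAPDH control probe sets, which falls as more full-length message is represented, was 5.8 and 9.12 in the first pair and 4.26 and 3.84 in the second, against 5.1 to 6.23 at E14. The counts of calls are therefore given for all 4 arrays and for each pair. A change seen in both pairs is one that passed the test in each pair against E14. A call over the 4 arrays need not have passed in each pair. The pairs share the 3 E14 arrays. The median expression index was 190 to 200 on the E14 arrays and 174 to 201 on the E16 arrays.

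The labelled cell type was checked against 6 Schwann lineage genes. Erbb3, the neuregulin receptor subunit of the lineage, had index values of 2552 to 5097 over the 7 arrays, and the transcription factor Sox10 had 727 to 2990. S100b, a calcium-binding protein often used as a Schwann cell marker, was at or below the floor of 68.5 on all 7 arrays. An index is the deposited model-based value of a probe set in intensity units, and values below the floor were set to it before log2 was taken. Every fold is the ratio of the stages' geometric means after that floor, and is given as at least that size where an array of the lower stage was at the floor. Of the 6 lineage genes, Gfra3 and Fabp7 were called lower at E16 and none higher, with a median log2 change of -0.40. The 6 genes summed to 11997 to 13566 at E14, 5056 to 6436 in the first E16 pair and 7820 to 9386 in the second.

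Of 10414 probe sets tested, 176 (1.69%) differed between E16 and E14 at an adjusted p under 0.05 (limma, Benjamini-Hochberg over all probe sets), 61 higher at E16 (0.586%) and 115 lower (1.1%). They stand for 53 and 100 genes. At an unadjusted p under 0.05 there were 1165. E16 replicates 1 and 2 alone gave 376 (3.61%), 119 higher (1.14%) and 257 lower (2.47%), and E16 replicates 3 and 4 alone gave 159 (1.53%), 88 higher (0.845%) and 71 lower (0.682%). With the lot as a block these counts were 159 and 100. After quantile normalization 47.5% of the calls in replicates 1 and 2 were higher, against 31.6% without it. The median log2 change of all probe sets was -0.04 over the 4 arrays, -0.12 in replicates 1 and 2 and 0.01 in replicates 3 and 4. Leaving out E14 replicate 1 or E14 replicate 3 lowered the count of 176 to 114 or 107.

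In both pairs 94 probe sets were called (0.903%), 30 higher (0.288%) and 64 lower (0.615%), for 26 and 56 genes. No probe set was called in opposite directions in the pairs. All 94 had the 4 E16 values on 1 side of the 3 E14 values, as did 10.4% of all probe sets tested (3.8% higher and 6.57% lower). Of the 61 higher calls, 30 were made in both pairs, 10 only in replicates 1 and 2, 17 only in replicates 3 and 4, and 4 in neither. Of the 115 lower calls the same counts were 64, 41, 2 and 8. Of the 30 rises, 24 were larger in replicates 3 and 4, and of the 64 falls, 27 were. Another 6 falls had every E16 array at or below the floor, which makes their change the same in both pairs. The sign of all 94 changes within a lot is fixed by that lack of overlap. The median log2 changes of the rises and falls were 1.32 and -1.74 within lot 1, where E16 replicates 1 and 2 meet E14 replicate 1, and 1.98 and -1.67 within lot 3, where E16 replicate 3 meets E14 replicate 3. Leaving out E16 replicate 1, 2 or 3 lowered the count of 94 to 50, 53 or 55.

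The 15 largest rises seen in both pairs came from genes of several kinds, and the largest were Anxa1, Col15a1 and Fgl2. Each named probe set is the one with the largest change of its gene, and probe sets without a single gene symbol are not ranked. Anxa1 encodes annexin A1, a calcium-dependent phospholipid-binding protein. Its index was 67.9, 23.3 and 30.1 on the E14 arrays, all below the floor, and 1687, 1834, 504 and 859 on E16 replicates 1 to 4. Anxa1 was thus at least 15.7-fold higher at E16 (log2 change 3.97 ± 0.42 SE, adjusted p = 3.9e-05), with every E16 array above every E14 array and replicates 1 and 2 above 3 and 4. Another Anxa1 probe set was at least 11.1-fold higher, and the remaining one did not pass the test (log2 change 0.98, adjusted p = 0.16).

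Col15a1, the chain of a collagen found beside basement membranes, measured 195, 238 and 127 at E14 and 1254, 1097, 1724 and 2973 at E16. The rise was 9.03-fold (log2 change 3.17 ± 0.39 SE, adjusted p = 0.00017), and here replicates 3 and 4 were the higher pair. Fgl2, a fibrinogen-like protein, measured 174, 114 and 156 at E14 and 1243, 813, 920 and 1010 at E16, a 6.76-fold rise of about the same size in each pair (log2 changes 2.79 and 2.73, adjusted p = 8.6e-05 over the 4 arrays). Srgap2, which couples membrane curvature to the control of Rac, went from 85.3, 45.9 and 95.7 to 714, 600, 332 and 443, at least 6.08-fold higher (adjusted p = 9.9e-06).

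**Figure D1:**
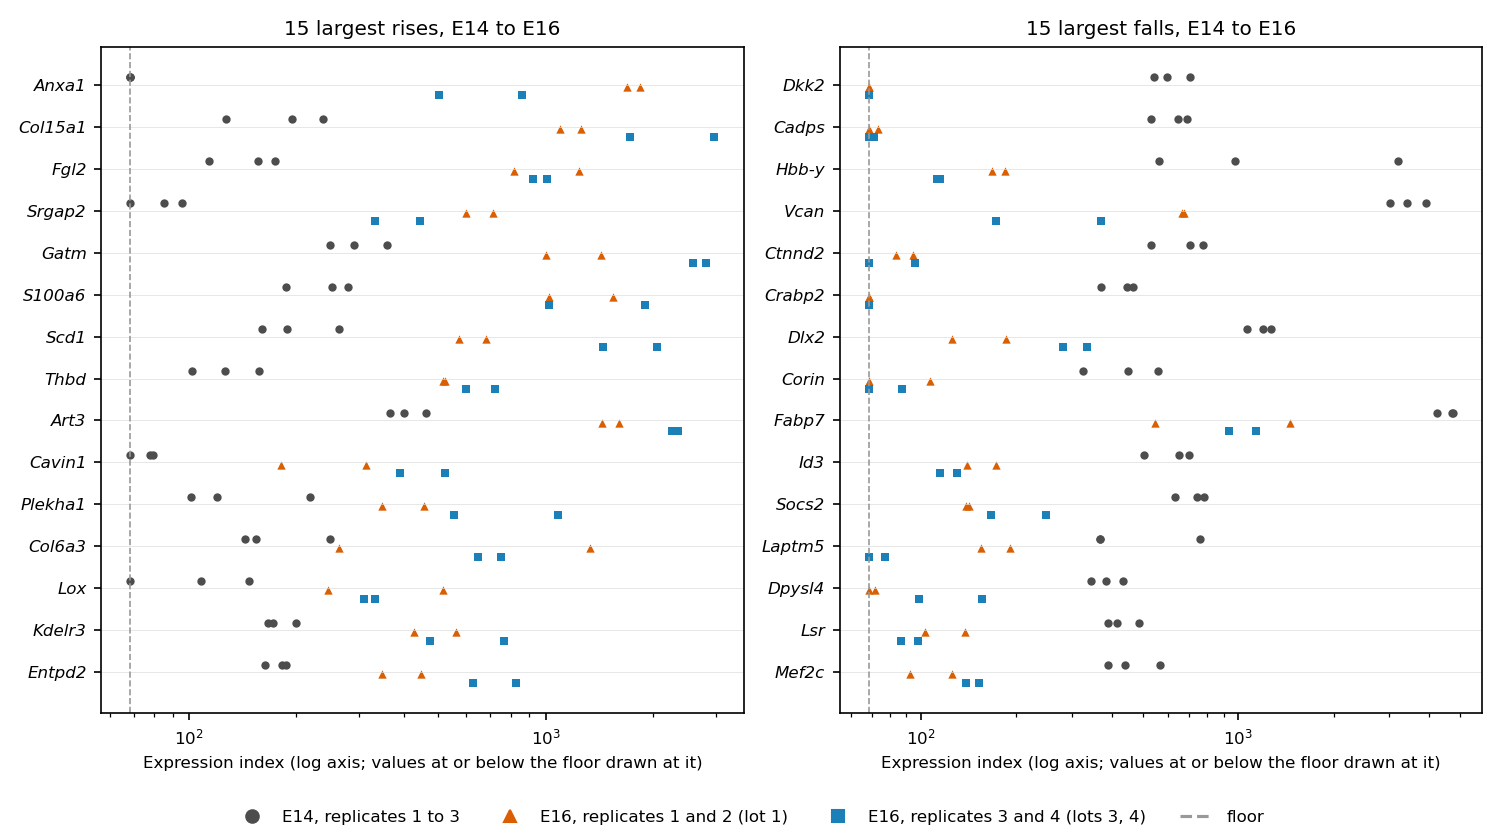
Expression index of each array (log axis, intensity units) for the 15 largest rises and the 15 largest falls seen in both pairs among probe sets with 1 gene symbol. Circles are the 3 E14 arrays, triangles E16 replicates 1 and 2, squares E16 replicates 3 and 4, and the dashed line is the floor of 68.5. In every row the E16 symbols lie on 1 side of the E14 circles, and Anxa1 and Col15a1 show opposite orders of the E16 pairs.

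Enzymes and small calcium-binding proteins followed in size. Gatm, the first enzyme of creatine synthesis, measured 248, 291 and 360 at E14 and 1427, 1004, 2809 and 2591 at E16, a 6.07-fold rise (log2 change 2.60 ± 0.36 SE, adjusted p = 0.00055). S100a6, a small calcium-binding protein, measured 280, 187 and 251 at E14 and 1021, 1550, 1025 and 1903 at E16, a 5.62-fold rise (adjusted p = 0.00076). The E16 pairs of S100a6 overlapped each other, while those of Gatm did not. Scd1, a desaturase that makes monounsaturated fatty acids, measured 188, 160 and 264 at E14 and 679, 572, 2054 and 1450 at E16, a 5.2-fold rise (adjusted p = 0.0033). A brighter Scd1 probe set rose 3.11-fold (adjusted p = 0.0011), and the third did not pass the test (log2 change 0.45, adjusted p = 0.6).

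Surface and membrane proteins made up another share of these 15. Thbd, the thrombin receptor thrombomodulin, measured 157, 102 and 126 at E14 and 522, 517, 720 and 599 at E16, a 4.62-fold rise with a small spread (log2 change 2.21 ± 0.16 SE, adjusted p = 4.6e-07). Its other probe set had a log2 change of 1.51 and an adjusted p of 0.066. Art3, of the ADP-ribosyltransferase family, rose 4.59-fold, from 410 ± 49.0 (SD, n = 3) to 1915 ± 461 (SD, n = 4). Cavin1, a coat protein of caveolae, was at least 4.37-fold higher, with 66.1, 77.6 and 79.5 at E14 and 181, 313, 391 and 521 at E16. Entpd2, an enzyme that removes phosphates from extracellular ATP, rose 3.0-fold, from 177 ± 12.7 to 561 ± 211. The other probe sets of Cavin1 and Entpd2 did not pass the test, with log2 changes of 0.23 and 0.43 and adjusted p = 0.83 and 0.47.

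The last of the 15 were Plekha1, Col6a3, Lox and Kdelr3. Plekha1, a phosphoinositide-binding protein, rose 4.01-fold, and 1 of its other probe sets also rose (log2 change 1.47, adjusted p = 0.0026) while the other had a log2 change of -0.66 that did not pass (adjusted p = 0.66). Col6a3, a chain of microfibrillar collagen VI, measured 249, 154 and 144 at E14 and 264, 1336, 645 and 748 at E16, so that E16 replicate 1 lay only just above the highest E14 array. Kdelr3, a receptor that returns proteins to the endoplasmic reticulum, rose 3.03-fold. The calls of Plekha1 (adjusted p = 0.053 without E14 replicate 3) and Col6a3 (0.073 without E14 replicate 2, 0.089 without E14 replicate 3) depended on single E14 arrays, and Col6a3 also missed the threshold with the lot as a block (0.058).

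**Figure D2:**
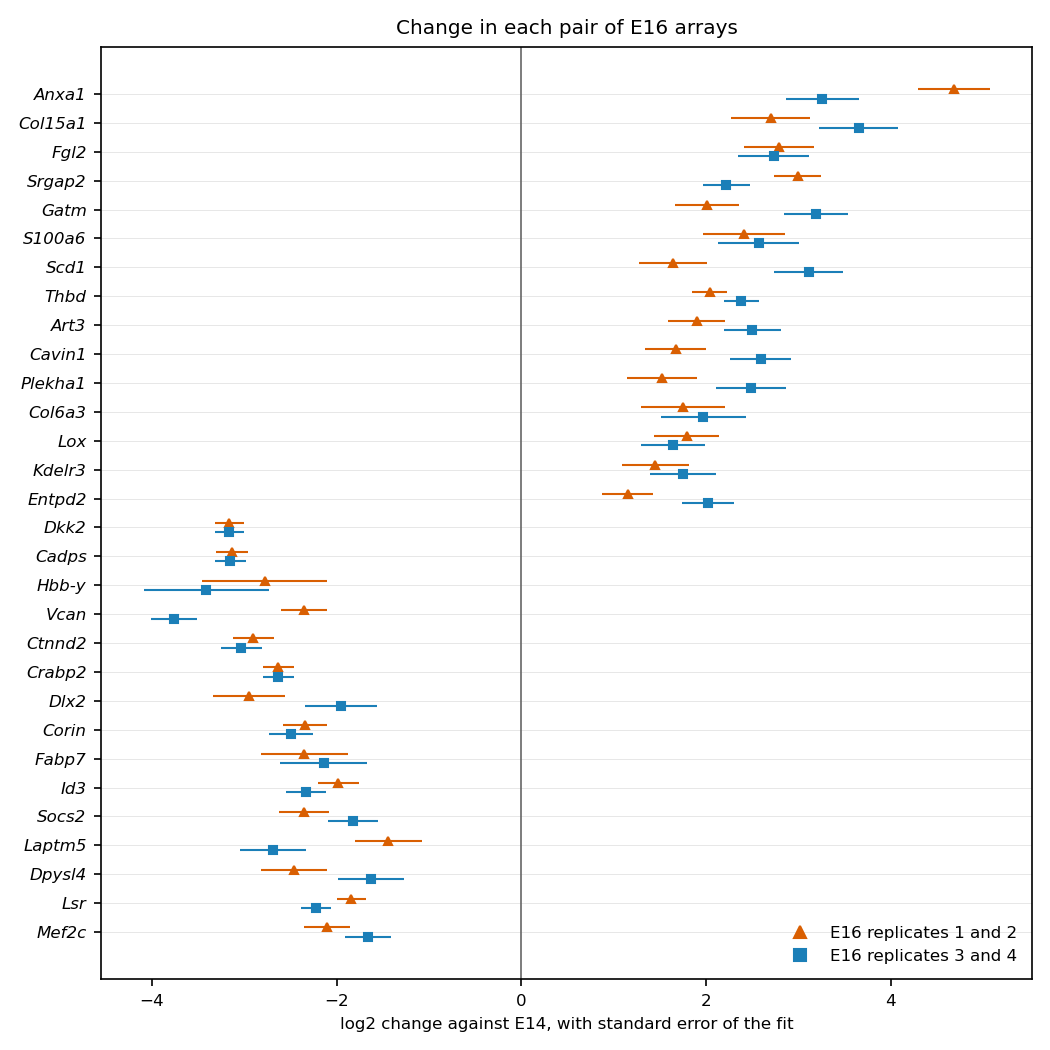
Log2 change against E14 of the same 30 genes in each pair of E16 arrays, with the standard error of the fit. Triangles are E16 replicates 1 and 2 and squares are replicates 3 and 4, and the 2 changes of a gene share the E14 arrays. Vcan falls further in replicates 3 and 4 (-3.76 against -2.35). Dkk2 has -3.16 in each because all 4 E16 arrays were set to the floor.

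The 15 largest falls with a gene symbol included secreted, vesicle, matrix and transcription factor genes, and 2 probe sets without a symbol fell further. Dkk2, a secreted modulator of Wnt signalling, measured 707, 541 and 596 at E14 and 51, 39.4, 48.8 and 58.5 at E16, where all 4 arrays were below the floor. Dkk2 was at least 8.91-fold lower at E16 (log2 change -3.16 ± 0.13 SE, adjusted p = 3.6e-10). Cadps, which primes dense-core vesicles for release, went from 689, 533 and 648 to 73, 54.5, 71 and 47.6, at least 8.83-fold lower (adjusted p = 3.6e-10). Its other probe set also fell (log2 change -0.73, adjusted p = 0.012).

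Vcan is the chondroitin sulfate proteoglycan versican. It measured 3409, 3008 and 3924 at E14, 677 and 667 in the first E16 pair and 173 and 370 in the second, an 8.31-fold fall (log2 change -3.05 ± 0.34 SE, adjusted p = 6.5e-05). Fabp7, the brain fatty acid-binding protein of early glia, measured 4718, 4245 and 4752 at E14 and 1460, 547, 937 and 1137 at E16, a 4.75-fold fall (adjusted p = 0.0033). In both genes each E16 array lay far below the lowest E14 array.

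Transcriptional regulators among the 15 were Dlx2, Id3 and Mef2c. Dlx2, a homeobox factor, measured 1067, 1274 and 1196 at E14 and 185, 125, 333 and 280 at E16, a 5.46-fold fall (log2 change -2.45 ± 0.37 SE, adjusted p = 0.0012). Id3, an inhibitor of basic helix-loop-helix factors, measured 505, 649 and 702 at E14 and 173, 140, 115 and 130 at E16, a 4.44-fold fall (adjusted p = 3.9e-06). The 4 E16 values of Id3 were close together, whereas those of Dlx2 split by pair. Mef2c, a MADS-box factor, fell 3.68-fold on the named probe set (adjusted p = 0.00011), but its other 3 probe sets had log2 changes of -0.18, -0.43 and -1.17 and did not pass (adjusted p = 0.71, 0.42 and 0.083). Crabp2, a cytoplasmic carrier of retinoic acid, went from 466, 370 and 445 to 41.4, 44.7, 37.3 and 20.2, at least 6.2-fold lower (adjusted p = 3.8e-09).

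Junction and signalling genes completed the group. Ctnnd2, a catenin of adherens junctions, was at least 7.82-fold lower, from 671 ± 126 to 84.6 ± 14.4. Lsr, a component of tricellular junctions, fell 4.09-fold with a small spread (log2 change -2.03 ± 0.15 SE), and its other probe set also fell (log2 change -0.77, adjusted p = 0.0062). Corin, a membrane serine protease, was at least 5.33-fold lower, Socs2, a suppressor of cytokine signalling, fell 4.24-fold, and Dpysl4, of the collapsin response mediator family, was at least 4.12-fold lower.

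Hbb-y and Laptm5 were both highest on E14 replicate 1. Hbb-y, an embryonic globin of red cells, measured 3185 on E14 replicate 1 against 975 and 563 on the others, and 112 to 184 at E16, an 8.55-fold fall (adjusted p = 0.006). The call of Hbb-y held without that array. Laptm5, a lysosomal protein of blood cells, measured 758 on that array against 368 and 367, and 155, 191, 77 and 68.1 at E16, at least 4.18-fold lower (adjusted p = 0.0062), and missed the threshold without that array (0.059). Ctss, a macrophage protease, followed the same order at E14, with 787, 341 and 196, and was the only 1 of 13 macrophage markers tested that was called (adjusted p = 0.033, 0.24 without E14 replicate 1, and 0.068 to 0.089 without any 1 of 4 other arrays). Of the 13 markers 12 had a negative log2 change, with a median of -0.34. They summed to 2514 to 3813 on the E14 arrays and 1927 to 2257 on the E16 arrays, with Csf1r between 91.7 and 156 and Adgre1 at or below the floor on 3 of the 4 E16 arrays. The brighter Laptm5 probe set, which stands for the gene in that list, had a log2 change of -0.75 (adjusted p = 0.23). Hbb-y was the only 1 of 10 erythroid markers called, and its other probe set had a log2 change of -0.17 (adjusted p = 0.89). The part of blood cells in these falls was not tested.

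Other genes called in both pairs are given in brief. Among those that rose, Fst, which binds activin, rose 2.97-fold, Mbp, a myelin protein, 2.84-fold, Lama2, the laminin alpha 2 chain, 2.83-fold, Reln, the secreted protein reelin, 2.78-fold, and Timp2, an inhibitor of metalloproteinases, 2.31-fold. The other Reln probe set had a log2 change of -0.35 and did not pass (adjusted p = 0.86). Col5a2 rose 2.29-fold, Pdgfa 2.12-fold and P4ha2 2.07-fold. Among those that fell, Gap43, a growth-associated protein, was at least 3.67-fold lower. Glul, glutamine synthetase, fell 3.47-fold, Ctsl, the protease cathepsin L, 3.25-fold, Prss12, a serine protease of neural tissue, 3.19-fold and Gfra3, a receptor subunit for artemin, 2.93-fold. Smaller falls included Cd151, a tetraspanin that binds laminin receptors, at 2.28-fold, and Basp1, a membrane protein of growing neurites, at 1.78-fold. The other probe sets of Glul and Basp1 had log2 changes of -0.14 and -0.45 and did not pass (adjusted p = 0.78 and 0.45).

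The same genes were read at E12 and E18, stages outside the comparison. Their arrays were in the same fit, so both comparisons share the estimate of spread of each probe set and are not independent. In E18 against E12, 28 of the 30 probe sets that rose in both pairs were called higher, where 3.38% of all probe sets were, and 56 of the 64 that fell were called lower, where 7.6% of all were. None was called in the other direction. The median log2 changes from E12 to E18 were 2.82 for the rises and -2.27 for the falls.

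Across stages the falls differed in where they began. Vcan had means of 5067 at E12, 3447 at E14, 472 at E16 and 14.9 at E18. Id3 had 2035 at E12, 619 at E14 and 120 to 140 from E16 to P0. Dkk2 and Fabp7 had much the same means at E12 and E14, at 512 and 615 for Dkk2 and 4822 and 4572 for Fabp7. Corin, Col26a1, Tecta and Col19a1 were higher at E14 than at either neighbour: Corin had means of 61.8, 444 and 76.2 at E12, E14 and E16, Col26a1 98, 499 and 184, Tecta 236, 719 and 257, and Col19a1 53.2, 171 and 72.2. Socs2 fell from 1425 at E12 to 719 and 174, and had a mean of 767 at P0.

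The rises also differed. Lama2 had means of 105 at E12, 1949 at E14 and 5556 at E16, and Reln 48.9, 1109 and 3186, so these were already well above their E12 level at E14. Anxa1 and Col15a1 were about as low at E14 as at E12, with means of 70.2 and 40.4 for Anxa1 and 166 and 187 for Col15a1. Mbp had means of 190, 943, 2751, 4029 and 4374 from E12 to P0, and S100a6 133, 239, 1374, 2308 and 2603. These levels across stages are descriptions, and the neighbouring stages beyond E14 and E16 were not tested here.

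**Figure D3:**
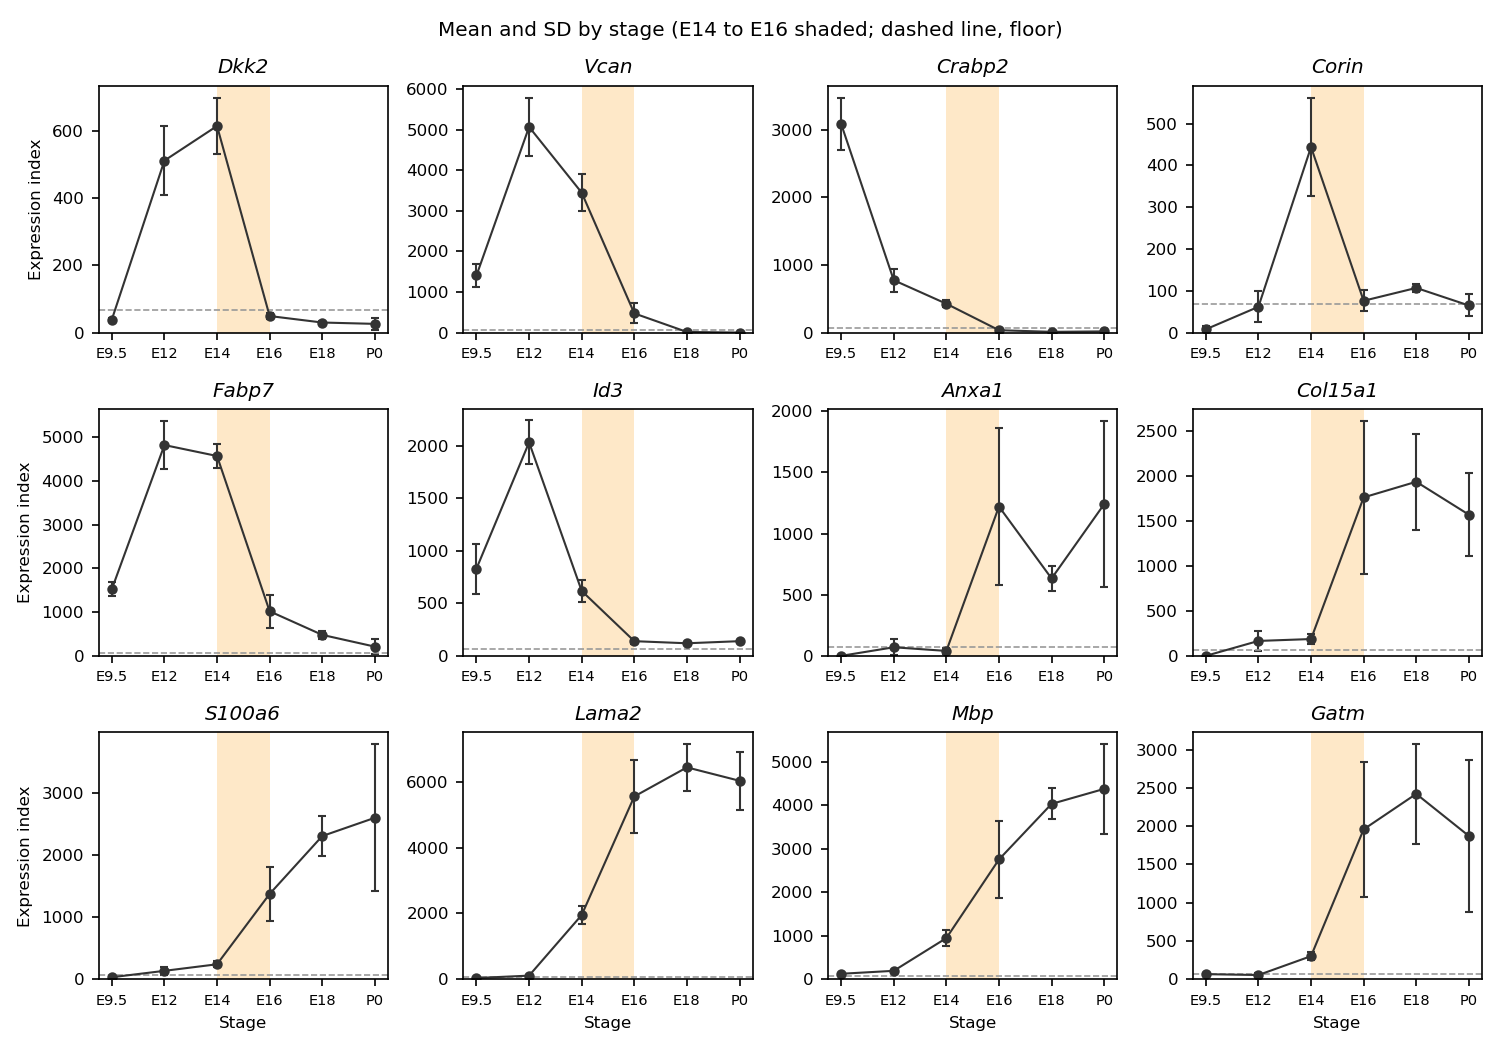
Mean expression index and SD (intensity units) at the 6 stages for 12 of the genes, with 3 arrays a stage and 4 at E16. The E14 to E16 step is shaded and the dashed line is the floor. Corin peaks at E14, Vcan declines from E12 on, and Mbp goes on from 2751 at E16 to 4374 at P0.

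Gene lists for the lineage and its neighbours were counted with 1 probe set a gene, the one with the highest mean. Of 7414 genes tested in this way, 50 (0.674%) rose and 89 (1.2%) fell, with a median log2 change of -0.04, and each list is read against those figures. In both pairs 24 of these rises and 48 of these falls were called. The counts describe the lists, and no list was tested as a set.

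Among 14 Schwann precursor genes, 5 fell and none rose, with a median log2 change of -0.47. They were Fabp7, Gap43, Gfra3, the fibronectin receptor subunit Itga4 and the neural crest factor Tfap2a, and all but Tfap2a were called in both pairs. Gfra3 measured 2684, 2219 and 2640 at E14 and 983, 746, 759 and 965 at E16, without overlap (log2 change -1.55 ± 0.21 SE, adjusted p = 0.00038). Itga4 measured 230, 215 and 282 at E14 and 67.3, 45.5, 125 and 70.4 at E16, at least 3.0-fold lower (adjusted p = 0.00017). Tfap2a fell 1.73-fold (adjusted p = 0.043) and missed the threshold without any 1 of 6 arrays, at 0.053 to 0.18, though another Tfap2a probe set had a log2 change of -1.24 (adjusted p = 0.017).

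The other precursor genes did not pass. Sox10 had a log2 change of -0.38 ± 0.45 SE (adjusted p = 0.8), the adhesion molecule Cdh2 -0.75 ± 0.37 (0.46) and the endothelin receptor Ednrb -0.46 ± 0.37 (0.68). The list summed to 24106 to 28867 on the E14 arrays, 12648 to 14176 in the first E16 pair and 23125 to 24030 in the second, so the pairs stood apart in the total while the 4 genes named fell in each.

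Of 13 immature Schwann cell genes none was called in either direction, with a median log2 change of 0.02. Dhh, the hedgehog ligand made by Schwann cells, had 3057, 3176 and 2804 at E14 and 2923, 3788, 3510 and 4114 at E16, which overlap (log2 change 0.24 ± 0.19 SE, adjusted p = 0.67). The factor Jun had 0.23 ± 0.24 (0.77), and Egr1 0.02 ± 0.53 (1.0). Gfap and S100b, at 58.2 to 129 and 22.6 to 61.4, were near or below the floor.

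Of 9 myelin genes 2 rose and all 9 had a positive log2 change, with a median of 0.28. Mbp measured 907, 1134 and 789 at E14 and 1962, 2174, 2926 and 3940 at E16 (log2 change 1.51 ± 0.23 SE, adjusted p = 0.0014), and every E16 array exceeded every E14 array. Its other probe set had a log2 change of 0.13 (adjusted p = 0.83). Mal, a proteolipid of myelin membranes, measured 507, 891 and 733 at E14 and 1592, 1482, 4180 and 3113 at E16, a 3.4-fold rise (adjusted p = 0.015) that was called in replicates 3 and 4 (adjusted p = 0.0011) and not in replicates 1 and 2 (0.078). Without E14 replicate 1 or 3 the adjusted p of Mal was 0.12 or 0.06. Pmp22, a membrane protein of compact myelin, measured 1741, 2703 and 2319 at E14 and 2999, 3478, 4317 and 4435 at E16, without overlap, but did not pass (log2 change 0.76 ± 0.24 SE, adjusted p = 0.17). Cnp and Gjb1 were close to the floor on all 7 arrays.

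Of 27 Schwann lineage transcription factors 3 fell and none rose, with a median log2 change of -0.25. They were Id3, Tfap2a and Nab1, a corepressor of Egr factors, which measured 1636, 1632 and 1501 at E14 and 897, 822, 1042 and 922 at E16, a 1.73-fold fall (adjusted p = 0.0079). Egr2, the factor required for myelination, measured 2074, 1501 and 2963 at E14 and 1683, 3353, 4419 and 4185 at E16 (log2 change 0.61 ± 0.35 SE, adjusted p = 0.56), and Sox2, a factor of undifferentiated glia, had -0.58 ± 0.25 (0.4). Neither passed.

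Of 12 genes of neuregulin receptor signalling none was called over the 4 arrays, with a median of -0.02. Erbb3 had a log2 change of -0.11 ± 0.27 SE (adjusted p = 0.92), with E16 values of 2717, 2552, 5097 and 3996 on either side of the E14 values of 3429, 3781 and 3973. Pik3ca, a catalytic subunit of phosphoinositide 3-kinase, was called lower in replicates 1 and 2 (log2 change -1.17, adjusted p = 0.0041) and not in replicates 3 and 4 (-0.48, adjusted p = 0.36).

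**Figure D4:**
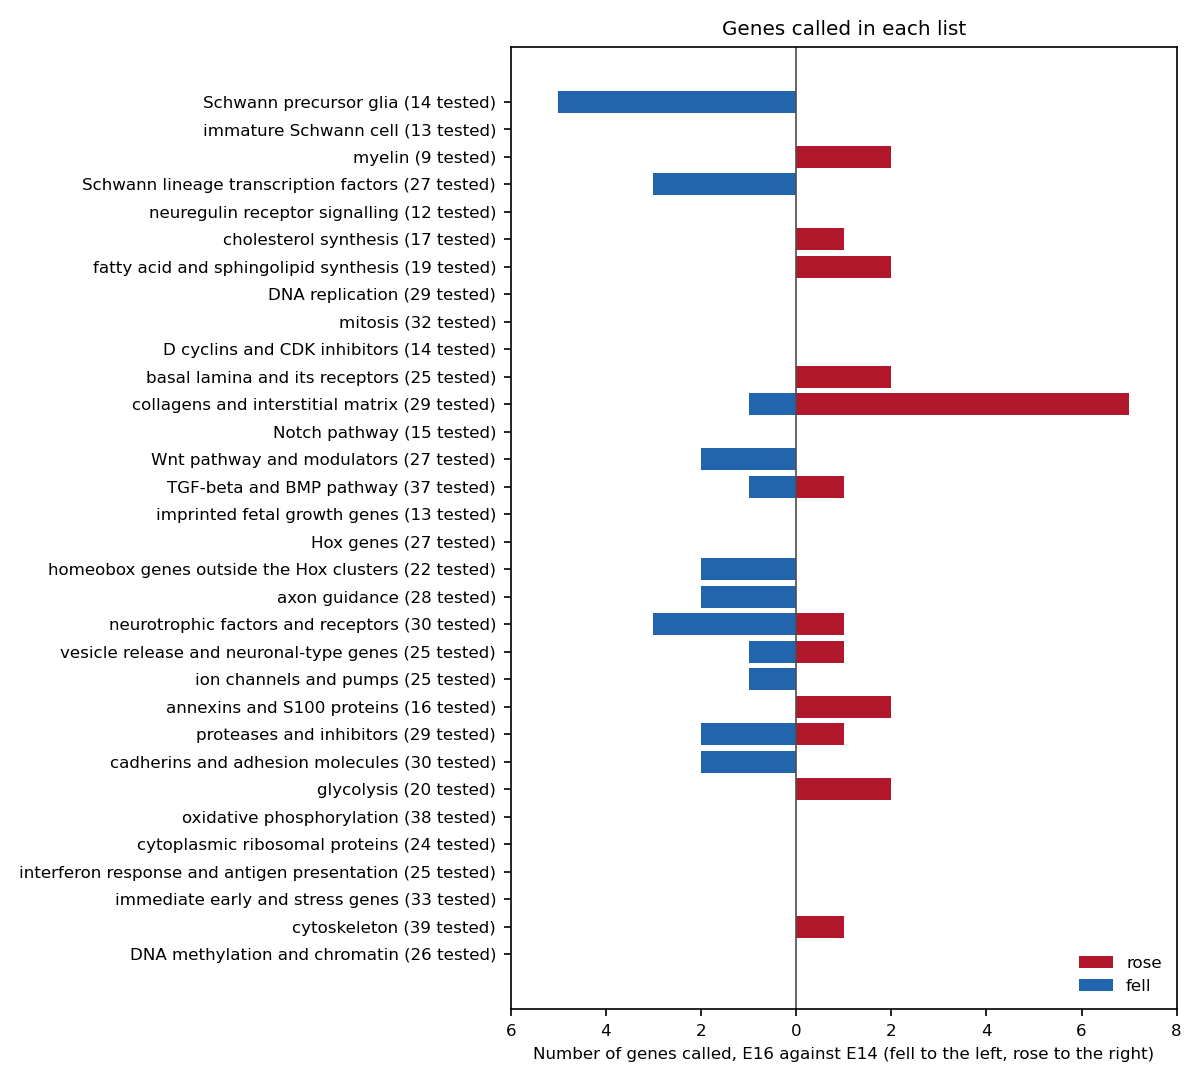
Number of genes called in E16 against E14 in each gene list, those that rose to the right and those that fell to the left, with the number of genes tested in brackets. The longest bars are 7 rises among 29 collagens and interstitial matrix genes and 5 falls among the 14 precursor genes.

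Collagens and interstitial matrix held the most rises of any list. Of 29 genes tested 7 rose and 1, Vcan, fell, with a median log2 change of 0.43. The fibril chains Col1a1, Col5a1 and Col5a2 rose 1.81-, 2.2- and 2.29-fold. Col5a2 measured 1559, 1809 and 1737 at E14 and 3618, 3809, 4279 and 3898 at E16, with a small spread at each stage (log2 change 1.20 ± 0.14 SE, adjusted p = 0.0001). Col6a3 rose 3.63-fold. Lox, the oxidase that starts collagen cross-links, went from 147, 64.6 and 108 to 245, 514, 333 and 309, at least 3.28-fold higher (adjusted p = 0.0027), while its other probe set had a log2 change of 0.29 (adjusted p = 0.55).

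P4ha1 and P4ha2, the catalytic subunits of prolyl 4-hydroxylase, which modifies collagen in the endoplasmic reticulum, rose as well. P4ha1 measured 263, 286 and 296 at E14 and 493, 564, 817 and 1371 at E16, a 2.66-fold rise (log2 change 1.41 ± 0.33 SE, adjusted p = 0.034). P4ha2 rose 2.05-fold on its brightest probe set (adjusted p = 0.032) and 2.07-fold on the other, which measured 111, 113 and 112 at E14 and 225, 192, 273 and 245 at E16 (adjusted p = 0.0012). Loxl1, Col6a1, Col6a2 and Col12a1 had log2 changes of -0.13, 0.05, -0.13 and -0.02 and did not pass.

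Of these 7 rises, Col5a2, Col6a3 and Lox were called in both pairs. With 1 array left out the list gave 3 to 5 rises, 3 without E14 replicate 2 or 3, 4 without E14 replicate 1 or E16 replicate 3, and 5 without E16 replicate 1, 2 or 4. Col5a2 and Lox were called each time, while Col1a1, Col5a1, P4ha1 and the brightest P4ha2 probe set lost their call in 4 to 6 of the 7 fits. In replicates 3 and 4 alone 6 genes of the list rose, and in replicates 1 and 2 alone 4. Within lot 1 the log2 change was positive for 23 of the 29, with a median of 0.55, and within lot 3 for 22, with a median of 0.36.

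Fibroblast markers were counted beside these genes. Of 15 tested 2 rose, Col1a1 and Ogn, and 13 had a positive log2 change, with a median of 0.30, and 7 of the markers are also in the matrix list. They summed to 14477 to 20243 on the E14 arrays, 22602 to 29756 in the first E16 pair and 25262 to 28713 in the second. Their median log2 change was 0.33 in the first pair and 0.08 in the second, against 0.33 and 0.28 for the matrix list. Ogn, a small matrix proteoglycan, missed the threshold without any 1 of 5 arrays, at 0.12 to 0.16. The other Ogn probe set had a log2 change of 0.40 (adjusted p = 0.62). Dcn, the matrix proteoglycan decorin, was high on 1 array: it measured 493, 323 and 273 at E14 and 357, 3395, 123 and 237 at E16. Mfap5 followed with 1017 on E16 replicate 2 against 57.5 to 100 on the other 6 arrays, and Lum had its highest value, 251, on that array. Twist1 was at or below the floor on 6 of the 7 arrays and Pdgfra measured 112 to 177. The part of fibroblasts in the collagen rises was not tested.

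Basal lamina components and their receptors numbered 25, of which 2 rose, Lama2 and Col15a1, and none fell, with a median log2 change of 0.37. Lama2 measured 1687, 2234 and 1925 at E14 and 4408, 4835, 6716 and 6265 at E16 (2.83-fold, adjusted p = 8.6e-05), with replicates 3 and 4 above 1 and 2 and both above E14. Both were called in both pairs. Other laminin chains did not pass, such as Lama4 at 0.75 ± 0.29 (adjusted p = 0.31) and Lamc1 at 0.23 ± 0.15 (0.6). Itgb4, a laminin receptor subunit, was called in replicates 3 and 4 (log2 change 1.74, adjusted p = 0.048) and not in replicates 1 and 2 (0.64, adjusted p = 0.43), with 1588 on E16 replicate 4 against 459 to 629 on the other E16 arrays. Col18a1 differed between probe sets: its brightest had a log2 change of -0.53 that did not pass (adjusted p = 0.24), while another fell 3.08-fold, from 880 ± 48.0 to 290 ± 63.6 (adjusted p = 0.00041). The remaining Col18a1 probe sets had log2 changes of -0.07, -0.57 and -1.24 and did not pass (adjusted p = 0.91, 0.42 and 0.42).

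Cholesterol synthesis genes were called mostly in the second pair. Over the 4 arrays 1 of 17 genes rose, the farnesyl diphosphate synthase Fdps, and all 17 had a positive log2 change, with a median of 0.44. In replicates 3 and 4 alone 4 rose, Hmgcs1, Fdps, Sqle and Msmo1, with a median of 0.50, and in replicates 1 and 2 alone none did, with a median of 0.24. Of all genes 0.904% rose in replicates 3 and 4 and 1.12% in replicates 1 and 2. The difference between the pairs was called for no gene of the list. Fdps measured 365, 323 and 305 at E14 and 687, 781, 1228 and 1454 at E16 (log2 change 1.58 ± 0.32 SE, adjusted p = 0.012, and 0.051 or 0.067 without E14 replicate 2 or 3). The other Fdps probe set tested had a log2 change of 1.25 and did not pass (adjusted p = 0.2). Hmgcs1, the enzyme that makes the precursor of mevalonate, measured 398, 414 and 617 at E14 and 1005, 816, 3044 and 1910 at E16, without overlap, but did not pass (log2 change 1.66 ± 0.49 SE, adjusted p = 0.14). Sqle, squalene epoxidase, had 1.26 ± 0.32 (adjusted p = 0.06). Within lot 1 the log2 change was positive for 10 of the 17 and within lot 3 for 16. The GAPDH ratio was lower on replicates 3 and 4, and with it as a covariate 4 of the 17 rose over the 4 arrays, while the count over all 7414 genes went from 50 to 72.

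In fatty acid and sphingolipid synthesis 2 of 19 genes rose, Scd1 and Scd2, with a median log2 change of 0.13. Scd2 measured 5017, 5961 and 5335 at E14 and 7689, 7848, 9160 and 8308 at E16, a 1.52-fold rise (adjusted p = 0.028) that missed the threshold without any 1 of 5 arrays, at 0.051 to 0.17. The other Scd2 probe set had a log2 change of 0.21 (adjusted p = 0.66). Fads1, another desaturase, was called in replicates 3 and 4 (log2 change 1.56, adjusted p = 0.039) and not in replicates 1 and 2 (0.16, adjusted p = 0.86), and in replicates 1 and 2 the acyl-CoA ligase Acsl4 and the malic enzyme Me1 were called lower (-1.72 and -1.24, adjusted p = 0.012 and 0.041), where 2.63% of all genes were, against 0.715% in replicates 3 and 4.

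In glycolysis 2 of 20 genes rose, with a median of 0.17. Ldha, lactate dehydrogenase A, measured 2831, 2640 and 2916 at E14 and 3842, 4612, 4675 and 5146 at E16, a 1.63-fold rise (adjusted p = 0.032), and missed the threshold without any 1 of 6 arrays, at 0.064 to 0.13. Pdk1, a kinase that restrains pyruvate dehydrogenase, rose 2.2-fold, from 178 ± 49.2 to 385 ± 48.3 (adjusted p = 0.006, and 0.057 without E14 replicate 3). Of 38 genes of oxidative phosphorylation none was called, with a median of -0.19.

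The stretch before the start of 4 of these genes is printed to show motif letters known from the control of their pathways. P4ha1, P4ha2 and Ldha rose over the 4 E16 arrays, and Hmgcs1 was called in replicates 3 and 4 alone. Sequences are from RefSeq on GRCm38.p6, cover the 250 bases before the start on the strand of the gene, and have motif matches on either strand in capitals. The motifs and the genes were chosen after their values were seen. In P4ha1, P4ha2 and Ldha the capitals mark ACGTG or its reverse complement, the core bound by hypoxia-inducible factors, of which Ldha holds 5 matches, 2 overlapping pairs among them. In Hmgcs1 the capitals mark TCACNCCAC, the form of the sterol regulatory element.
P4ha1, chr10:59323046-59323295 on the plus strand: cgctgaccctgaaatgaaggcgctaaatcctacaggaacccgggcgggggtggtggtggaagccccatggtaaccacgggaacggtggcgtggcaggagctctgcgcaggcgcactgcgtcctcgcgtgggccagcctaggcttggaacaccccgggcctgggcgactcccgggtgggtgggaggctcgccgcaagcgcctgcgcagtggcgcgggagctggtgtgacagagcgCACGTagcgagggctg
P4ha2, chr11:54100674-54100923 on the plus strand: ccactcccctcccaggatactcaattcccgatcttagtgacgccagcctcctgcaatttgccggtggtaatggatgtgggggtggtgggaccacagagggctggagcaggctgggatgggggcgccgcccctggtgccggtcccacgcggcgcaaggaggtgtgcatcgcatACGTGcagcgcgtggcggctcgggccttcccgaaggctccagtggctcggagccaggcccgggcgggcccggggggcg
Ldha, chr7:46845554-46845803 on the plus strand: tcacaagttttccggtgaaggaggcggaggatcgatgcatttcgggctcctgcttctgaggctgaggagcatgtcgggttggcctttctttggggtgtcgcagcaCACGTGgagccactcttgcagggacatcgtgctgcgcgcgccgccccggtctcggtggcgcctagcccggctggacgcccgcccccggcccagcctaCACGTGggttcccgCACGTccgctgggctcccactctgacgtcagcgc
Hmgcs1, chr13:119690101-119690350 on the plus strand: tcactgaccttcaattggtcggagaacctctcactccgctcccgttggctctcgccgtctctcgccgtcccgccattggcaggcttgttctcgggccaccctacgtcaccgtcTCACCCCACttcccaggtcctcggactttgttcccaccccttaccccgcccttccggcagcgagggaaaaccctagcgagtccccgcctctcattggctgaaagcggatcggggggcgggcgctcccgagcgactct
Of 32851 such promoter stretches in the table, 16.6% hold ACGTG and 1.05% hold TCACNCCAC. Ldha has a further start in the table, without a match, and Pdk1 had none either. Of the 17 cholesterol genes 14 were in the table, and Hmgcs1 was the only 1 with the sterol letters in this window. A match is a description of the letters and not evidence that a factor is bound.

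Among signalling lists, 2 of 27 Wnt pathway genes fell and none rose, with a median of -0.07. They were Dkk2 and the Wnt receptor Fzd3, which measured 1994, 1695 and 2218 at E14 and 1217, 945, 967 and 818 at E16, a 2.0-fold fall (adjusted p = 0.041) that missed the threshold without any 1 of 6 arrays, at 0.065 to 0.18. In the TGF-beta and BMP pathway 1 of 37 rose, Fst, with 91.8, 72.4 and 106 at E14 and 222, 257, 415 and 206 at E16 (adjusted p = 0.0014), and 1 fell, Id3. Of 15 Notch pathway genes none was called, with a median of -0.18, and Notch1 had a log2 change of -0.70 ± 0.27 (adjusted p = 0.31).

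Of 30 neurotrophic factors and receptors 1 rose and 3 fell. Pdgfa, a growth factor chain, measured 1639, 1952 and 1517 at E14 and 4054, 3680, 2784 and 3967 at E16, a 2.12-fold rise (adjusted p = 0.00078). Gfra3, Mdk and Kitl fell. Mdk, the heparin-binding growth factor midkine, measured 1029, 1299 and 1108 at E14 and 299, 442, 324 and 705 at E16, a 2.74-fold fall (adjusted p = 0.017). Kitl, the ligand of the Kit receptor, fell 2.12-fold, from 2810 ± 453 to 1326 ± 181 (adjusted p = 0.016). Mdk missed the threshold without any 1 of 5 arrays (0.053 to 0.089) and Kitl without any 1 of 3 (0.055 to 0.1). The list summed to 21908 to 22548 at E14, 16423 to 16873 in the first E16 pair and 20883 to 21046 in the second.

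Of 28 axon guidance genes 2 fell. Nrp1, a semaphorin receptor, measured 2258, 2801 and 2465 at E14 and 1022, 830, 1072 and 1263 at E16, a 2.41-fold fall (adjusted p = 0.016, and 0.083, 0.066 or 0.056 without E14 replicate 2, E14 replicate 3 or E16 replicate 2). Epha7, an ephrin receptor, measured 254, 159 and 304 at E14 and 109, 104, 116 and 98.3 at E16, a 2.16-fold fall (adjusted p = 0.0016). Of 25 vesicle release and neuronal-type genes Cadps fell and Gria2, a glutamate receptor subunit, rose. Gria2 measured 0, 24.9 and 14.9 at E14 and 250, 155, 319 and 295 at E16, at least 3.59-fold higher, but its adjusted p was 0.048 and rose to 0.098 to 0.17 without any 1 of 6 arrays. Its other probe set tested had a log2 change of 0.21 (adjusted p = 0.87). Of 11 neuron markers Rtn1 alone fell (adjusted p = 0.038, and 0.06 to 0.21 without any 1 of 6 arrays). The ion channel Kcna4 was the only 1 of 25 ion channels and pumps called, and its stages overlapped, at 130 to 196 and 47.6 to 134 (adjusted p = 0.041, and 0.066 to 0.23 without any 1 of 6 arrays).

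Homeobox genes outside the Hox clusters gave 2 falls among 22. Dlx1 and Dlx2 are neighbours in the genome. Dlx1 measured 1516, 1369 and 1414 at E14 and 138, 50, 384 and 211 at E16, at least 8.6-fold lower (log2 change -3.11 ± 0.74 SE, adjusted p = 0.042). The SE draws on the spread within all 6 stages, and Dlx1 ranged from 42.5 to 940 at E9.5. Without any 1 of 6 arrays the adjusted p was 0.063 to 0.16. Dlx1 was called in replicates 1 and 2 (adjusted p = 0.018) and not in replicates 3 and 4 (0.27), whereas Dlx2 was called in both. Of 27 Hox genes none was called, with a median of -0.06, and the brightest, Hoxa4, measured 1830, 2749 and 2151 at E14 and 1871, 2746, 1549 and 2556 at E16.

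Of 16 annexins and S100 proteins 2 rose, Anxa1 and S100a6, with a median of 0.25. Other members did not pass over the 4 arrays, such as S100a10 at 1.12 ± 0.31 (adjusted p = 0.096) and Anxa2 at 0.48 ± 0.36 (0.66). Of 29 proteases and inhibitors Timp2 rose and Ctsl and Prss12 fell. Timp2 measured 999, 1080 and 1660 at E14 and 2429, 2451, 2780 and 3774 at E16 on the brightest of its probe sets tested (adjusted p = 0.0018), and another had a log2 change of 0.23 (adjusted p = 0.82). Ctsl measured 2356, 2016 and 2782 at E14 and 804, 703, 820 and 605 at E16 (adjusted p = 8.6e-05), and Prss12 measured 3426, 3682 and 3410 against 1023, 762, 1281 and 1460 (adjusted p = 0.0018). Of 30 cadherins and adhesion molecules Itga4 and Cd151 fell, and Cd151 measured 3174, 3635 and 3024 at E14 and 1374, 1782, 1099 and 1561 at E16. The other Cd151 probe sets tested had log2 changes of -0.07 and -0.08 (adjusted p = 0.99 and 0.9).

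Cell cycle genes were not called in either direction. Of 29 DNA replication genes none was called over the 4 arrays, with medians of -0.17 in replicates 1 and 2 and 0.35 in replicates 3 and 4. Of 32 mitosis genes none was called, with medians of -0.13 and 0.30. Pcna, the replication clamp, measured 2864, 2939 and 3101 at E14 and 3184, 3246, 3447 and 3278 at E16 (log2 change 0.15 ± 0.17 SE, adjusted p = 0.8). The medians over all genes were -0.13 and 0.02, and the difference between the pairs was called for no member of these lists. Also without a call over the 4 arrays were 24 cytoplasmic ribosomal proteins (median -0.20), 13 imprinted fetal growth genes (-0.43), 33 immediate early and stress genes (-0.04), 25 interferon and antigen presentation genes (0.10), 26 chromatin genes (-0.14) and 14 D cyclins and CDK inhibitors (0.20). Markers of endothelium, mural cells, skeletal muscle, melanocytes, mast cells, cartilage and epithelium gave no call over the 4 arrays either.

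The E16 pairs themselves differed in 11 probe sets (0.106%), 5 higher and 6 lower in replicates 3 and 4, and 2081 at an unadjusted p under 0.05. With the lot as a block the count was 1, and with only the E14 and E16 arrays in the fit it was 374. Of the named ones, 8 were also called against E14 in exactly 1 pair. In replicates 1 and 2, Gpr132, a receptor coupled to G proteins, and S100a4 were higher. Gpr132 measured 793, 773 and 590 at E14, 2016 and 2221 in the first E16 pair, and 817 and 780 in the second, close to E14. S100a4 measured 278, 241 and 249, then 827 and 634, then 321 and 231.

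Mknk2, Frmd6 and Slu7 were lower in replicates 1 and 2. Mknk2, a kinase that acts on the translation factor eIF4E, measured 435, 416 and 348 at E14, 0 and 9.95 in the first pair, and 368 and 427 in the second, while another Mknk2 probe set did not pass over the 4 arrays (log2 change -0.42, adjusted p = 0.58). Frmd6 measured 276, 252 and 271, then 64.4 and 110, then 327 and 421. Slu7, a splicing factor, measured 178, 206 and 191, then 83.3 and 104, then 214 and 237. In replicates 3 and 4, Cttn and Sema3c were higher, from values at or near the floor to 162 and 107 for Cttn and 130 and 124 for Sema3c. Tes was lower there, at 40.6 and 30.9 against 178, 156 and 166 at E14 and 444 and 217 on replicates 1 and 2.

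**Figure D5:**
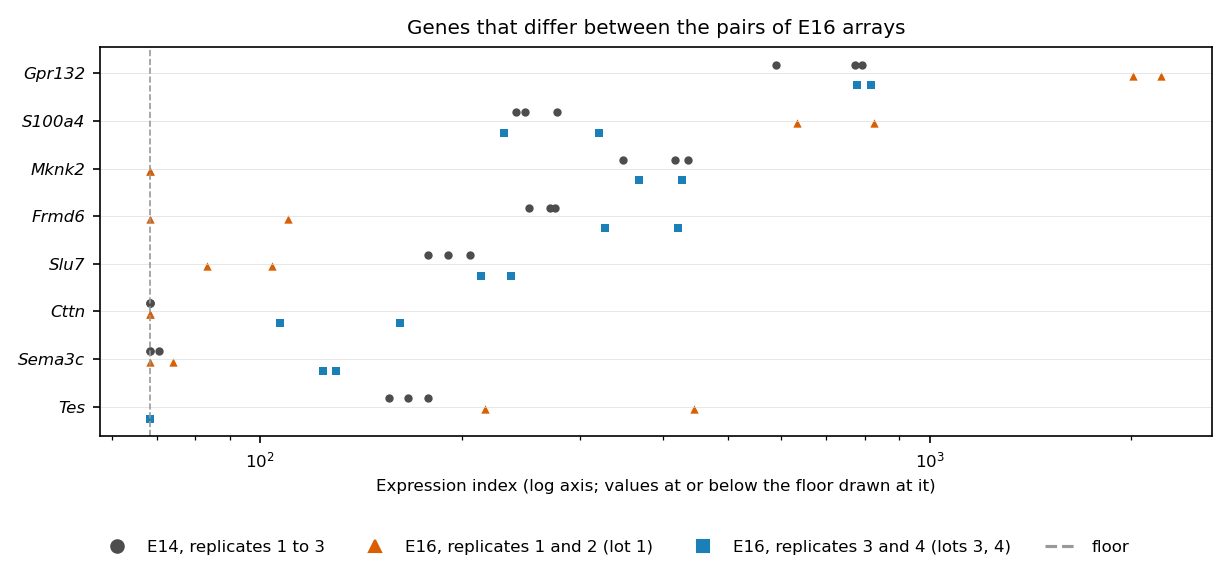
Expression index of each array (log axis, intensity units) for the 8 genes called against E14 in exactly 1 E16 pair and also between the pairs. Circles are E14, triangles E16 replicates 1 and 2, squares E16 replicates 3 and 4, and the dashed line is the floor. For Gpr132, S100a4 and Mknk2 the squares lie near the circles, and for Cttn and Sema3c the triangles do.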

How the data were processed

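The deposited values are model-based expression indices, linear intensities with 1 value for each array and probe set. The authors, per the labels' protocols, scanned with MAS 5.0, normalized the arrays with dChip's smoothing spline and computed probe sensitivities from 18 arrays. Other software versions are not given in the sources used here.

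Of 12488 probe sets, 66 controls were left out. Of the rest 10833 have 1 gene symbol in the platform annotation, 396 several and 1193 none. Values were raised to a floor of 68.5 (the 25th percentile of all values), log2 was taken, and the 10414 probe sets above the floor on at least 3 arrays were tested. Limma 3.58.1 in R 4.3.3 fitted the 6 stage means over all 19 arrays (13 residual degrees of freedom), and again with E16 split into its pairs (12). P-values were adjusted by Benjamini-Hochberg over all probe sets tested, with a threshold of 0.05. The fit was tested on simulated data. Folds are ratios of geometric means after the floor, and one against a stage with an array at the floor is a lower bound on that ratio. Each array is 1 measurement, and their number limits the precision.

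Genes were named by rule: the 15 largest rises and 15 largest falls called in both pairs without overlap, up to 4 called members of each list by size (or its 2 brightest), and genes called in exactly 1 pair and between pairs. Further members and probe sets were picked after their values were seen. The comparison and gene lists were chosen with earlier results of these data known. Alternatives were other floors, filters, a pseudocount, quantile normalization, blocks for lot and replicate number, a GAPDH covariate, array weights, a trended variance, only the 7 arrays, and each array left out. The gene whose promoter drives the reporter is not reported here.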

Additional observations from a re-analysis of the deposited data

Results flagged for a closer look

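Among the named genes, 2 had an E16 array that stood away from the other 3: Itga4, where E16 replicate 3 was the highest at 125 against 45.5 to 70.4, and Kcna4, where the same array was the highest at 134 against 47.6 to 72.2. Chance alone marks about 1 in 20 groups of 4 in this way.

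The change from E14 differed between the E16 pairs, by a test of the pairs against each other, in 9 named genes. As replicates 3 and 4 minus replicates 1 and 2 on the log2 scale, the difference was 2.53 for Mknk2, 2.09 for Frmd6, 1.28 for Slu7, 0.95 for Cttn and 0.83 for Sema3c. It was -2.51 for Tbxas1, -2.18 for Tes, and -1.41 for each of Gpr132 and S100a4. Tbxas1, thromboxane synthase, measured 943, 823 and 403 at E14, 1658 and 1589 in the first E16 pair, and 210 and 385 in the second, and neither pair passed against E14. The lot number and the GAPDH ratio also differ between the pairs, and their part in these differences was not tested gene by gene.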

How the results depend on the processing

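The counts of calls moved with the settings. For E16 against E14 (176), they were 63 with only the E14 and E16 arrays in the fit, 272 with the GAPDH covariate and 912 with array weights, and 107 to 181 with 1 array left out. For E16 replicates 1 and 2 (376), they were 169 with the GAPDH covariate, 159 with the lot block and 1954 with array weights, and 83 to 239 with 1 array left out (83 without E16 replicate 1, 145 without E16 replicate 2, 166, 239 and 195 without E14 replicates 1, 2 and 3). For E16 replicates 3 and 4 (159), they were 104, 100 and 277 under the same settings and 105 with the replicate block, and 80 to 136 with 1 array left out (80 without E16 replicate 3, 96 without E14 replicate 1). For both pairs (94), they were 51 with only the 7 arrays and 167 with array weights, and 50 to 69 with 1 array left out. Between the pairs (11), they were 38 and 22 with the floor at the 10th and 40th percentile, 25 with a filter on at least 6 arrays, 22 after quantile normalization, 374 with only the 7 arrays, 2 with the GAPDH covariate, 1 with either the lot or the replicate block, 31 with a trended variance and 730 with array weights, and 2 to 39 with 1 array left out. The causes were not tested.

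Deviations from the stage means correlated at 0.028, 0.166 and 0.205 between same-numbered E14 and E16 arrays. Between differently numbered arrays they correlated at -0.238 to 0.094. The main fit did not pair arrays by replicate number, and whether that number marks a shared source was not tested. With the replicate number as a block, 245 probe sets were called in E16 against E14.

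Of the 94 probe sets, 43 (12 higher, 31 lower) were called in E16 against E14 under all 19 alternatives, and 48 with only the 7 arrays. Of 74 values (the 30 largest changes, the 8 genes that differed between the pairs and in 1 pair, and the called list members), 40 lost their call under some alternative, 38 of them with only the 7 arrays. The 8 genes that differed between the pairs were not called over the 4 arrays and had no call to lose. Of the 74 values, 73 kept their direction throughout. The exception among them was Tes, whose change over the 4 arrays was not called (log2 -0.19) and became 0.27 with the floor at the 40th percentile, 0.29 with array weights, -0.73 to 0.17 with 1 array left out (0.17 without E16 replicate 3 or 4). Other genes named without a call are outside that count, and some near 0, such as Tbxas1, Egr1, Hoxa4 and Erbb3, changed sign under some alternatives. Signal near the floor limits S100b, Gfap, Cnp and Gjb1.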

Other observations

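Of the 11 probe sets that differed between the E16 pairs, 2 carry no gene symbol. The first measured 63.4, 86.6 and 68.1 at E14, 882 and 569 in the first E16 pair, and 83.1 and 60.1 in the second. The second measured 922, 775 and 966 at E14, 6347 and 5986 in the first pair, and 742 and 447 in the second.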
